A study of Mus musculus with 12 samples.

Results

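The mitochondrial ribosomal protein genes were taken as every gene whose mouse symbol is Mrpl or Mrps followed by a number and that had at least 1 raw count. The rule gave 78 of the 27179 genes counted, and 77 of them were among the 14219 genes that passed the filter on low values (the authors' normalized counts averaging 20 or more). By known structure, 51 of the 78 encode proteins of the large subunit and 26 proteins of the small subunit. Mrps30 and Mrps18a carry small-subunit names but belong to the large subunit, and Mrps36 is an adaptor of the 2-oxoglutarate dehydrogenase complex rather than a ribosomal protein.

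RNA was sequenced from the retinal pigment epithelium (RPE), the pigmented layer behind the photoreceptors, of unmodified C57BL/6J males. At 5 months and at 22 months there were 3 animals each, and both eyes of every animal gave a library, 12 in all, with 9171131 to 13217909 raw counts. At either age, mice 1 and 2 came from batch 1 and mouse 3 came from batch 2. The RPE was freed from dissected eyes by enzyme treatment, so cells of neighbouring layers can be present.

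The mitochondrial ribosome makes the few proteins that mitochondrial DNA encodes, all of them subunits of the respiratory chain and ATP synthase. Its RNA comes from mitochondrial DNA, whereas all of its proteins are encoded in the nucleus, made in the cytosol and imported. Part of them descend from bacterial ribosomal proteins and the others are specific to mitochondria. RPE cells depend strongly on oxidative phosphorylation, which leaves the glucose that crosses them to the photoreceptors.

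The start sites of these genes are known to carry binding sites of factors that act broadly on mitochondrial genes, so the RefSeq promoter windows (GRCm38.p6, 250 bases before to 50 bases after the start) were examined. Of the 78 genes, 69 had a window, and 3 of them had more than 1, which gave 75 windows. The windows of the 4 members with the smallest p for age are printed 5′ to 3′. Whether promoter letters bear on the age difference was not tested. Capitals mark matches, on either strand, to CATGCGC (part of the site of NRF1), CCGGAAG (ETS factors such as GABP), AAGATGG (YY1), GGGCGG (SP1) or TATAAA (the TATA box).
Mrps7: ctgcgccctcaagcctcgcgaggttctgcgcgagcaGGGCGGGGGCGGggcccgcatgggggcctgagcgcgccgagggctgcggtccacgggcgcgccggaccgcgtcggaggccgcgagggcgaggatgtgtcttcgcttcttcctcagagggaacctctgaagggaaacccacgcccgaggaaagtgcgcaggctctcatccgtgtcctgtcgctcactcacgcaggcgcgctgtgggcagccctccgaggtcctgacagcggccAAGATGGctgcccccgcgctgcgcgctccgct
Mrpl58: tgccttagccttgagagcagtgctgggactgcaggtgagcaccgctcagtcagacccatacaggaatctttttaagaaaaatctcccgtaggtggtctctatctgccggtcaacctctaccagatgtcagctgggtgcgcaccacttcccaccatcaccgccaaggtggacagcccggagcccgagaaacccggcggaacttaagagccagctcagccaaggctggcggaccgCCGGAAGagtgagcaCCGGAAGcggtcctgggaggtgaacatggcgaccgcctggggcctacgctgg
Mrpl12: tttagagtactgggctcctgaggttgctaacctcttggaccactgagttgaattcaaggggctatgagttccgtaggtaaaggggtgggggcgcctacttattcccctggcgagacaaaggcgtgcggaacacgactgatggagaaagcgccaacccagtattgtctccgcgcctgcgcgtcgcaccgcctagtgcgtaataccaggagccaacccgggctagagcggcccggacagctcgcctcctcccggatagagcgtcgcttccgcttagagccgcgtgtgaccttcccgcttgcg
Mrpl42: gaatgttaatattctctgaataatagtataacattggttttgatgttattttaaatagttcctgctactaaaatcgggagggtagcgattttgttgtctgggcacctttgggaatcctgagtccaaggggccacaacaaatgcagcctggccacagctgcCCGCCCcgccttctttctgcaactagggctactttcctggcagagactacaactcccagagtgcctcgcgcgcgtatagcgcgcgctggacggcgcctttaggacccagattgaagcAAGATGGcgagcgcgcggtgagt
These windows lie at chr11:115603890-115604189 (Mrps7), chr11:115403502-115403801 (Mrpl58) and chr11:120484387-120484686 (Mrpl12), all on the plus strand, and at chr10:95501900-95502199 on the minus strand (Mrpl42). Mrps7 and Mrpl42 each held a YY1 match just downstream of the start together with at least 1 SP1 match upstream, Mrpl58 held ETS matches at the start, and Mrpl12 held a match to none of the 5.

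Matches to ETS letters were found in 34.7% of the 75 member windows, against 15.7% of the windows of all tested genes and 8.86% of all 32851 windows. NRF1 letters were in 10.7% of member windows, against 6.31% and 3.91%. YY1 letters were in 17.3%, against 6.50% and 6.34%. SP1 letters were in 52.0% of member windows and in 60.4% of those of tested genes, and TATAAA was in 6.67% and 7.63%. None of the matches in the printed windows overlapped another, and a match describes letters only. Of the 69 members with a window, 26 (37.7%) had the start of another gene on the opposite strand within 1000 bases upstream, against 18.5% of 11048 tested genes. Mrpl46 and Mrps11 were such neighbours of each other, 42 bases apart, and Mrps12 faced Sars2, the mitochondrial seryl-tRNA synthetase gene, at 147 bases.

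Members differed widely in level. Levels are compared here as CPM (counts scaled to a common library total with TMM factors) per kilobase of exon, with the exon length taken as the union over all GENCODE transcripts of a gene, so genes with long alternative exons appear lower. Over the 77 tested members the level per kilobase ran from 1.05 to 35.5, with a median of 7.04 and a ratio of 3.63 between the upper and lower quartiles. The highest were Mrps21 at 35.5, Mrps6 at 28.3, Mrpl27 at 27.2 and Mrpl41 at 25.7 CPM per kilobase. The lowest were Mrps17 at 1.05, Mrps35 at 1.26, Mrps10 at 1.63 and Mrpl47 at 1.73 CPM per kilobase. The median was 8.43 for the large subunit and 5.61 for the small subunit. Mrpl36, whose protein has a bacterial counterpart, had 15 raw counts over the 12 libraries, 0 to 3 in each, and was not tested.

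The strongest pattern among the members was between batches. Summed over all 78 genes, the members took 1343 and 1364 CPM in the 5-month mice of batch 1 and 1967 CPM in the 5-month mouse of batch 2. At 22 months they took 1188 and 1222 CPM in the batch 1 mice and 1781 CPM in the batch 2 mouse. Both mice of batch 2 thus lay above all 4 mice of batch 1 at either age, while within each batch the 22-month mice lay below the 5-month mice.

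**Figure D1:**
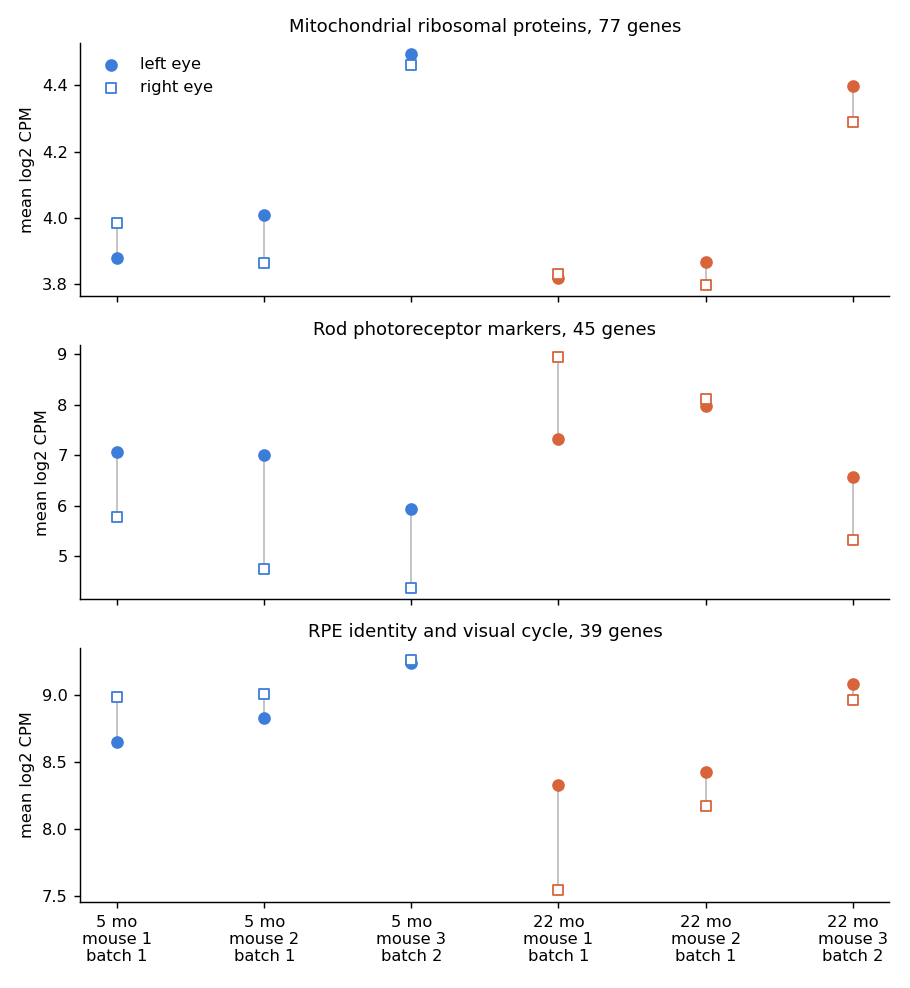
Mean log2 CPM of the 77 tested members, of 45 rod photoreceptor markers and of 39 RPE genes in each of the 12 libraries (y axis), by mouse (x axis); filled circles are left eyes, open squares are right eyes, and a grey line joins the eyes of a mouse. For the members, the eyes of mouse 3 of either age lay between 4.29 and 4.49 and all others between 3.80 and 4.01.

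In the batch term of the same edgeR model, chosen for report after these values were seen, 54 of the 77 members were higher in batch 2 and 0 were lower, at an adjusted p under 0.05 and a log2 difference beyond 0.25. Over all tested genes 26.3% were called higher and 25.6% lower, so the share of members called higher (70.1%) was above the background. At an unadjusted p under 0.05, 60 members were higher and 1 was lower, against 4351 and 4220 of all 14219 tested genes. The median member was 0.57 higher on the log2 scale, against 0.02 over all tested genes. For 62 members both mice of batch 2 lay above all 4 mice of batch 1, and for 67 members the batch difference was larger in size than the age difference. The share of all tested genes was not counted for either measure. Batch 2 held 2 mice, 1 per age, so the batch term rests on these 2 mice against the 4 of batch 1.

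Mrpl20, a core protein of the large subunit, had the largest batch difference among the members. It measured 10.6, 11.5 and 46.4 CPM in the 5-month mice 1 to 3 and 9.86, 12.3 and 43.0 CPM in the 22-month mice. The log2 batch difference was 2.01 (SE 0.11, adjusted p = 0.000247), while the age difference was -0.04 (SE 0.11, adjusted p = 0.834). At the other end, Mrps27, Mrps22 and Mrps30 had log2 batch differences of 0.05, 0.03 and 0.02, and Mrpl4 had -0.26 (SE 0.16, adjusted p = 0.221). The nuclear-encoded respiratory chain subunits were called higher in batch 2 in 63 of 73 cases (median log2 difference 0.74), and the 13 protein genes of mitochondrial DNA in 13 of 13 (median 2.31). Of 20 genes that charge mitochondrial tRNAs for the same ribosome (17 aminoacyl-tRNA synthetases and 3 subunits of the glutamyl-tRNA amidotransferase), 5 were called higher and 2 lower (median 0.02). The rod markers had their lowest summed level of each age in the mouse of batch 2, and the part of this in the batch difference was not tested.

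**Figure D2:**
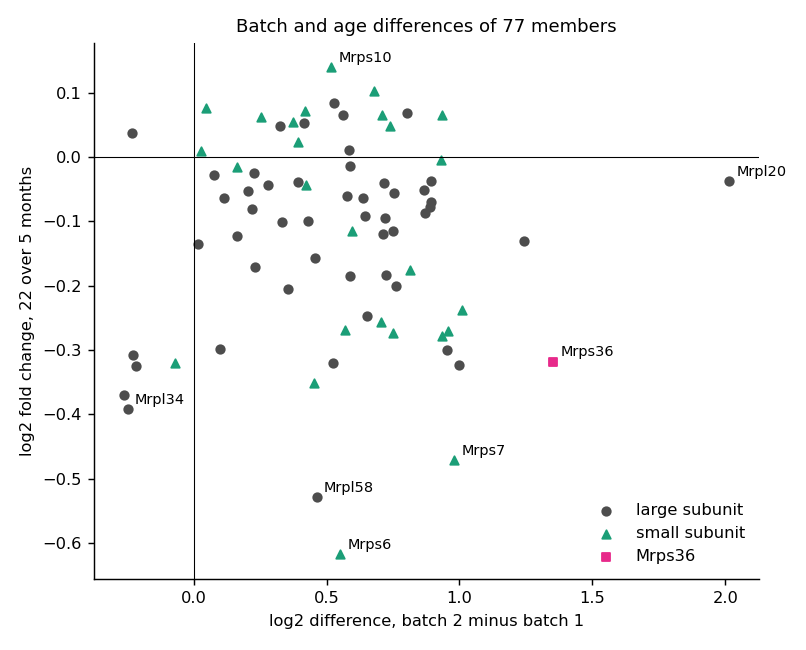
Log2 difference between batches (x axis, batch 2 minus batch 1) against log2 fold change between ages (y axis, 22 over 5 months) for the 77 tested members; circles are large-subunit genes, triangles small-subunit genes and the square Mrps36. Of the 77 points, 71 lie to the right of 0 and 59 lie below 0.

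With batch as a term and the eyes of a mouse summed, most members had a log2 fold change slightly below 0 at 22 months, and 1 passed the test. Mrps7, which sits in the head of the small subunit, was lower, and 0 members were higher. A call needed a p under 0.05 in edgeR's quasi-likelihood F test after Benjamini-Hochberg adjustment over all 14219 genes, together with a log2 fold change beyond 0.25. Over all tested genes 2.26% were called lower and 5.41% higher, so 1 of 77 (1.30%) lower is not above the background. At an unadjusted p under 0.05, 18 members (23.4%) were lower and 0 were higher, against 14.6% and 16.5% of all tested genes.

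The median log2 fold change of the members was -0.09, against -0.01 over all tested genes, and 59 of 77 (76.6%) were below 0, against 51.7%. Their spread was narrow, with a standard deviation of 0.16 against 0.49 over all genes and a range from -0.62 to 0.14. A log2 fold change beyond 0.25 was seen for 19 members in the lower direction and for 0 in the higher direction. Over all 14219 tested genes the counts were 2290 and 3067. In batch 1 alone 54 members (70.1%) were lower at 22 months (median log2 difference -0.07), against 49.7% of all tested genes. In batch 2 alone 64 (83.1%) were lower (median -0.11), against 53.7%. The same 48 members (62.3%) were lower in both batches, against 33.4% of all tested genes, and 7 (9.09%) were higher in both, against 29.9%. In bulk samples such as these, fewer cells of a type and less RNA per cell cannot be told apart.

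**Figure D3:**
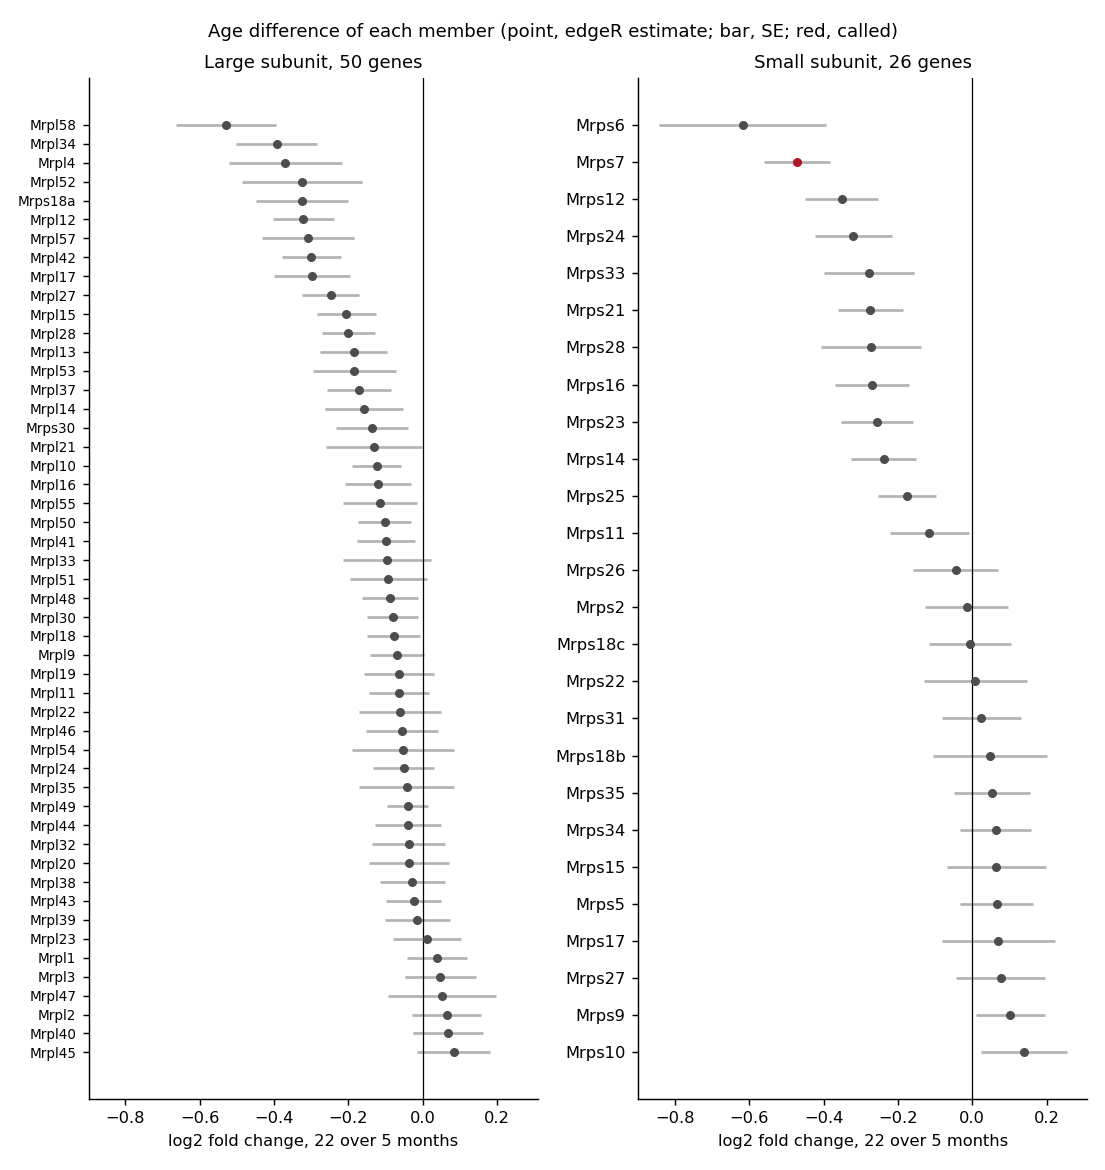
Log2 fold change (x axis, 22 over 5 months, edgeR with a batch term, n = 3 mice per age) of the 50 tested large-subunit genes and the 26 small-subunit genes; points are estimates, bars are standard errors, and red marks Mrps7, the called gene. Of the large-subunit genes 43 lie below 0, and of the small-subunit genes 15.

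Mrps7 (gene ID 50529, chr11:115604140-115608036) measured 28.8, 34.0 and 58.1 CPM in the 5-month mice 1 to 3 and 21.6, 21.7 and 45.6 CPM in the 22-month mice. The 22-month mouse was lower than the 5-month mice within each batch, but the ages overlapped because the batch 2 mice were high. The means were 40.3 ± 15.6 and 29.6 ± 13.8 CPM (SD, n = 3), and the log2 fold change was -0.47 (SE 0.09, adjusted p = 0.0413). The call was lost without any one of the 4 batch 1 mice, where the adjusted p was 0.0752 to 0.158, and when the replicate number replaced batch as the block (adjusted p = 0.0529). Without mouse 3 of either age 5 members were called lower (Mrps7, Mrpl58, Mrps18a, Mrps6 and Mrpl42), where 8.80% and 8.90% of all tested genes were lower. The batch term takes up the sole batch 2 mouse that is left, so both settings compare the same 4 mice of batch 1. Their agreement is therefore set by the design. The call of Mrps7 was also lost when batch was left out of the model, from left or right eyes alone, after adjustment for the rod score described below, and without the 3 libraries at the extremes of that score. Mrps7 overlaps Gga3 and Mif4gd in the RefSeq annotation, and the strand setting of the counting is not given in the sources used here, so reads from the overlap may be shared. Mif4gd had a log2 fold change of -0.48 (adjusted p = 0.107) and Gga3, a sorting adaptor, 0.11 (adjusted p = 0.463).

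DESeq2 on the same mouse sums called 2 members lower, Mrps7 and Mrpl58, and 0 higher, against 6.07% and 10.6% of all tested genes. In voom, with eyes as samples and a random effect of mouse, 11 members were lower and 0 higher, against 8.32% and 11.1%. The correlation that voom used between the eyes of a mouse was 0.05, so the eyes counted almost as independent samples. With no adjustment for batch, the mice of the ages did not overlap for 7 members that were lower (9.09%) and for 0 that were higher, against 6.60% and 6.19% of all tested genes. The 7 were Mrpl34, Mrps24, Mrpl17, Mrpl57, Mrpl4, Mrpl52 and Mrps30, and their log2 differences between batches lay between -0.26 and 0.10.

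Mrpl58, a peptidyl-tRNA hydrolase built into the central protuberance of the large subunit that frees stalled chains, measured 65.6, 72.4 and 81.1 CPM at 5 months and 38.3, 47.8 and 69.2 CPM at 22 months in mice 1 to 3. The 22-month mouse of batch 2 lay within the 5-month range and the other 22-month mice lay below it. Its log2 fold change was -0.53 (SE 0.13, adjusted p = 0.0689), which missed the threshold. It was -0.32 from left eyes, -0.76 from right eyes and -0.29 with the rod score described below, none of them called. Mrpl12, the stalk protein that recruits translation factors and is also known to bind the mitochondrial RNA polymerase, measured 16.2, 16.9 and 23.8 CPM at 5 months and 13.5, 12.96 and 19.0 CPM at 22 months. Within both batches it was lower at 22 months by a like amount, with log2 differences of -0.32 and -0.32, and the adjusted p was 0.0697.

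Mrpl42 measured 22.3, 23.4 and 41.1 CPM at 5 months and 17.4, 17.9 and 36.7 CPM at 22 months (log2 fold change -0.30, SE 0.08, adjusted p = 0.0736). Mrpl34, one of the smallest bacterial-type proteins of the large subunit, measured 15.8, 16.8 and 15.3 CPM at 5 months and 13.3, 13.5 and 9.99 CPM at 22 months. The ages of Mrpl34 did not overlap, and its log2 fold change was -0.39 (SE 0.11, adjusted p = 0.0808). Mrps12, the decoding-centre protein of the small subunit, measured 13.8, 13.1 and 19.5 CPM at 5 months and 10.5, 11.6 and 14.2 CPM at 22 months. It was lower within both batches, with a log2 fold change of -0.35 (SE 0.10, adjusted p = 0.0829), while the gene facing it, Sars2, had 0.15 (adjusted p = 0.437). Mrpl27 and Mrps21, both of bacterial type and among the 4 highest members per length, had log2 fold changes of -0.25 (adjusted p = 0.0977) and -0.27 (adjusted p = 0.105).

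**Figure D4:**
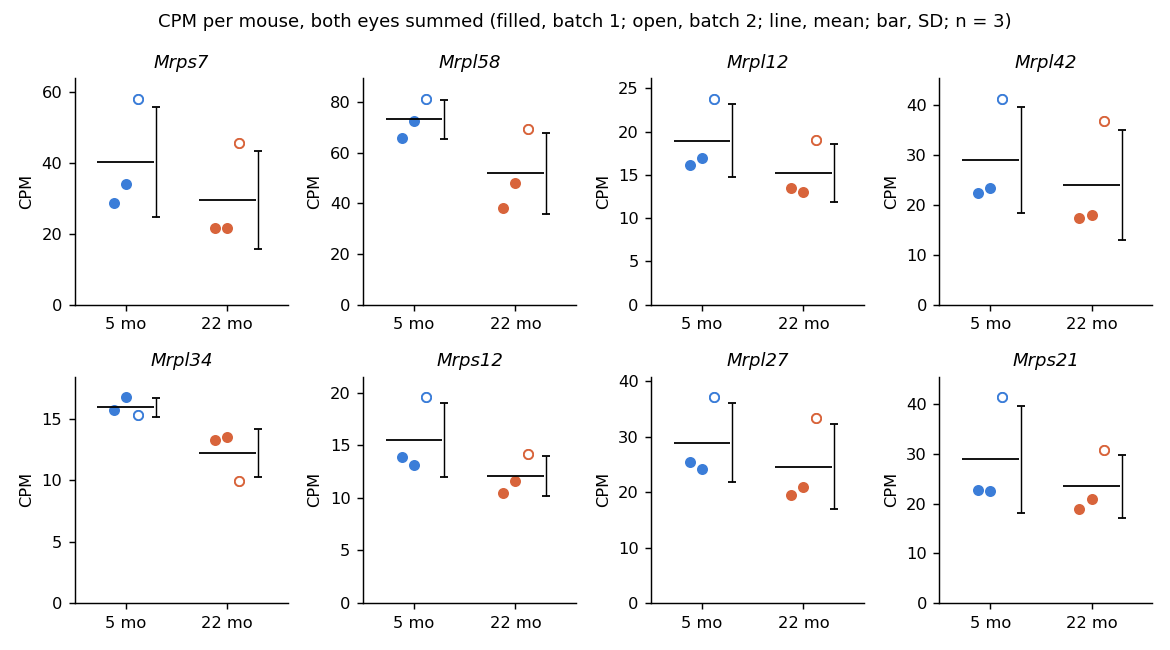
CPM per mouse with both eyes summed (y axis, from 0) at 5 and 22 months (x axis) for the 8 members with the smallest p; filled points are batch 1 mice, open points batch 2 mice, lines are means and bars SD (n = 3). In all 8 genes the mean at 22 months is below that at 5 months, and in 7 of them, Mrpl34 being the exception, the open point is the highest of its age.

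The largest fall in size was that of Mrps6, a small-subunit protein of bacterial type. It measured 49.2, 51.0 and 54.7 CPM at 5 months and 21.2, 32.6 and 51.9 CPM at 22 months. The difference lay in batch 1, with a log2 difference of -0.93, against -0.08 in batch 2, and the log2 fold change was -0.62 (SE 0.23, adjusted p = 0.132). It was -0.38 without 22-month mouse 1, -0.32 from left eyes and -0.99 from right eyes. Mrps6 overlaps Slc5a3, the myo-inositol transporter gene, which had a log2 fold change of -0.24 (adjusted p = 0.163), so reads may be shared. Mrpl4, a core protein of the large subunit, had a log2 fold change of -0.37 (SE 0.15, adjusted p = 0.164). It measured 43.4, 30.0 and 27.8 CPM at 5 months and 26.01, 27.3 and 24.5 CPM at 22 months, so that mouse 1 stood above the other 5-month mice, and without that mouse its log2 fold change was -0.18 (adjusted p = 0.292).

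The largest differences in the other direction were small. Mrps10, in the head of the small subunit, measured 10.9, 10.5 and 16.4 CPM at 5 months and 11.2, 13.6 and 16.6 CPM at 22 months, a log2 fold change of 0.14 (SE 0.12, adjusted p = 0.442). Mrps9 had 0.10, Mrpl45, which lies at the peptide exit and anchors the ribosome to the inner membrane, had 0.08, Mrps27 had 0.08, Mrps17 had 0.07 and Mrpl40 had 0.07, with adjusted p from 0.486 to 0.775. These differences were of the size of their standard errors.

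The subunits were described side by side. Of the 50 tested large-subunit genes 43 (86.0%) were below 0, with a median log2 fold change of -0.09, and of the 26 small-subunit genes 15 (57.7%), with a median of -0.03. The small-subunit values were more spread, with quartiles at -0.27 and 0.06, against -0.18 and -0.04 for the large subunit. Whether the subunits differ was not tested, since genes of a mouse are not replicates. The 46 tested members with a bacterial counterpart had a median of -0.09 and the 30 specific to mitochondria -0.07. By region, the 5 genes of the L7/L12 stalk and its base were all below 0 (median -0.12), as were 9 of the 10 genes of the central protuberance (median -0.10) and 8 of the 10 core genes of the large subunit (median -0.13). The 9 genes around the peptide exit tunnel had a median of -0.04, and the 8 genes of the small-subunit head split evenly, 4 below 0 and 4 above.

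Members with a known additional or separate role varied in the same narrow range. Mrpl44, a large-subunit protein with an RNase III-like fold, had a log2 fold change of -0.04 (adjusted p = 0.792). The Mrps18 genes are related to a single bacterial gene, and their products sit at different places in the ribosome. Mrps18a measured 34.0, 39.8 and 62.5 CPM at 5 months and 25.3, 27.4 and 61.8 CPM at 22 months, with a log2 difference of -0.48 in batch 1 and -0.02 in batch 2 (log2 fold change -0.32, adjusted p = 0.143). Mrps18b and Mrps18c had 0.05 and -0.01 (adjusted p = 0.847 and 0.977). Mrps36 measured 7.01, 8.63 and 21.5 CPM at 5 months and 5.50, 7.73 and 15.7 CPM at 22 months, a log2 fold change of -0.32 (SE 0.17, adjusted p = 0.252), with a log2 batch difference of 1.35. Mrps35 and Mrpl47, named as low per length, both had a log2 fold change of 0.05 (adjusted p = 0.745 for the former and 0.827 for the latter), and Mrpl41, named as high per length, had -0.10 (adjusted p = 0.418).

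Among markers of other cells, those of rods and leukocytes held genes called higher with age, and few or none of the endothelial, glial and muscle genes were called. Over all tested genes 2.26% were called lower and 5.41% higher. Of 45 rod photoreceptor genes 36 were called higher at 22 months and 0 lower, and their summed level was 5428 to 9803 CPM in the 5-month mice and 7318 to 31663 CPM in the 22-month mice. Of 39 RPE identity and visual cycle genes 9 were called lower and 0 higher, with summed levels of 46790 to 73772 and 23558 to 60660 CPM. Of 14 tested leukocyte genes 3 were called higher, with summed levels of 1708 to 4058 and 4003 to 5042 CPM. The summed levels at 5 and 22 months were 1768 to 1913 and 1539 to 1896 CPM for choroidal endothelium (1 of 15 called lower), 11325 to 19490 and 8450 to 19384 CPM for Mueller glia and astrocytes (1 of 14 called higher), and 2394 to 5813 and 2569 to 4401 CPM for striated muscle (0 of 14 called). No gene of these lists was at 0 over all libraries. Among the called genes of smallest p were Nr2e3 and Impg1 (rods, log2 fold change 1.80 and 1.68), Slc45a2 and Cdh1 (RPE, -1.06 and -0.74), Ramp2 (endothelium, -1.17), Cx3cr1 and Ptprc (leukocytes, 0.81 and 0.84) and Aqp4 (glia, 1.09), and in muscle Myl1 had -0.52 (adjusted p = 0.0619). Aqp4 was not typical of its list, where 8 of the 14 genes were below 0 (median log2 fold change -0.22). At an unadjusted p under 0.05 in edgeR, 5 glial genes were lower and 2 higher.

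The eyes of a mouse gave a comparison at the same age, batch and genotype. The rod score, the mean log2 CPM of the rod markers, differed between the eyes of a mouse by 0.14 to 2.25, whereas the mean log2 CPM of the 77 members differed by 0.01 to 0.14. In 2 of the 6 mice the eye with the higher rod score had the lower member mean. For a single member the median difference between eyes was 0.14 on the log2 scale over the 77 genes. When eyes were the samples and the model held this score, 70 of the 77 members (90.9%) were below 0, against 53.5% of all tested genes, with a median log2 fold change of -0.14. None was called, and at an unadjusted p under 0.05 there were 17 on the lower side and 0 on the other, against 7.66% and 8.33% of all tested genes.

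Genes of the same pathway were read from lists of known function. Among 5 mitochondrial ribosome proteins with other names, 0 were called in either direction (median -0.05, with 1 lower at an unadjusted p under 0.05). Chchd1, a small-subunit protein, had a log2 fold change of -0.31 (adjusted p = 0.0915), and Dap3, a GTP-binding protein of the small subunit, had 0.14. Of 28 assembly and rRNA modification factors 0 were called (median -0.05, with 2 lower and 1 higher at the unadjusted p). The smallest p was that of Nsun4, a methyltransferase of ribosomal RNA that takes part in joining the subunits (0.31, adjusted p = 0.101). Of 16 translation factors 10 were below 0 and 1 was called higher (median -0.09, with 2 lower and 1 higher at the unadjusted p). A call of 1 in 16 is near the share of all tested genes called higher. The called gene was Mtif2, the initiation factor that brings the initiator tRNA. Mtif2 measured 22.5, 23.4 and 20.9 CPM at 5 months and 33.5, 30.7 and 25.3 CPM at 22 months. The ages did not overlap, and it was higher by 0.41 on the log2 scale (SE 0.08, adjusted p = 0.0445), opposite in sign to most of the ribosomal proteins.

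Of the 20 tRNA-charging genes 0 were called (median 0.02, with 0 lower and 1 higher at the unadjusted p). The smallest p was that of Aars2, the alanine enzyme (0.37, adjusted p = 0.0934). Of 12 tested genes of mitochondrial DNA maintenance and transcription 0 were called (median -0.11, with 2 lower and 2 higher at the unadjusted p). The smallest p was that of the topoisomerase Top1mt (0.39, adjusted p = 0.0782). Of 9 factors known to act on mitochondrial ribosome genes 0 were called (median -0.10, with 1 lower and 2 higher at the unadjusted p). The coactivator Ppargc1b had 0.68 (adjusted p = 0.0785), the coactivator Ppargc1a -0.17, Nrf1 0.11, the ETS factor Gabpa -0.12 and Yy1 0.05. Ppargc1b measured 15.01, 12.3 and 4.11 CPM at 5 months and 27.2, 18.1 and 6.08 CPM at 22 months, lowest in the batch 2 mouse of each age.

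The mRNAs that the mitochondrial ribosome translates, and those of the nuclear-encoded partners of their products, had medians further below 0 than the members. All 13 protein genes of mitochondrial DNA were below 0, with a median log2 fold change of -0.30. None was called in edgeR, and 6 of the 13 were lower at the unadjusted p, against 14.6% of all tested genes. The smallest p was that of COX2, subunit 2 of cytochrome c oxidase, which measured 60.2, 66.1 and 229.9 CPM at 5 months and 46.1, 53.7 and 207.5 CPM at 22 months (log2 fold change -0.27, SE 0.09, adjusted p = 0.115). Of 73 nuclear-encoded respiratory chain subunits 70 were below 0 (median -0.20), 6 were called lower and 0 higher, against 2.26% and 5.41% of all tested genes. Cox7c, a small subunit of cytochrome c oxidase, had a log2 fold change of -0.36 (adjusted p = 0.0358), and Ndufb2, an accessory subunit of complex I, had -0.56 (adjusted p = 0.0366). The difference between these lists and the members was not tested.

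**Figure D5:**
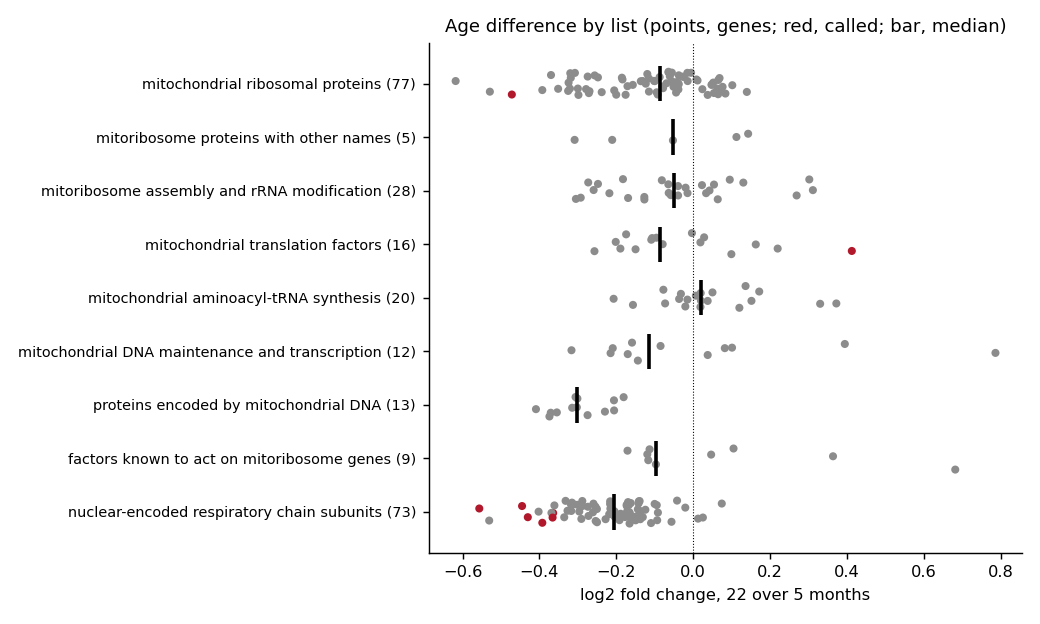
Log2 fold change (x axis, 22 over 5 months) of every tested gene of the 77 members and of 8 mitochondrial lists (y axis, number of genes in brackets); each point is a gene, red points are called, and black bars are medians. The median lies at -0.09 for the members, at -0.30 for the 13 genes of mitochondrial DNA and at -0.20 for the 73 respiratory chain subunits.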

How the data were processed

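RPE RNA of both eyes of 6 mice (12 libraries) was sequenced in 2 batches. Per the paper and the submitters' notes, the authors made stranded total RNA libraries depleted of ribosomal RNA, used FastQC and Trimmomatic on the reads, HISAT2 with mm10 for alignment and featureCounts for counting. Tool versions and strand options of that step are not given in the sources used. The deposited raw table gives counts per gene in whole numbers. The authors' ComBat-seq table corrects these for batch; its values were taken as estimated counts, rounded, and the deposited normalized table is a signal, the corrected counts divided by DESeq2 size factors.

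Gene IDs were matched to symbols in RefSeq GRCm38.p6 (25275 IDs) and GENCODE (18), and 1886 kept their ID. Near-identical copies and overlapping genes may share reads; 25 members overlap another RefSeq gene, 20 a protein-coding one.

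Raw counts of the eyes of a mouse were summed, which gave 20853656 to 26266140 counts per mouse. The main test was edgeR 4.0.16 (R 4.3.3), quasi-likelihood, with TMM scaling, batch and age (3 residual degrees of freedom), over genes with a mean normalized count of at least 20, with calls at 0.05 (adjusted p) and 0.25 (log2 fold change). A standard error is the fold change over the root of F. CPM used TMM library sizes over tested genes, and log2 CPM a prior count of 1. The test was tried on simulated data. The p-values of the main test measure the spread between these mice within batches. Fits with each eye as a sample counted the eyes of a mouse as separate replicates, or almost so in voom.

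The members, roles and lists were chosen with earlier results of these data known. The lists were the named mitochondrial pathways, 29 of whose symbols (mostly aliases) were not found in the table, and markers of RPE, rods, endothelium, leukocytes, glia and muscle. The members named are those called, the 8 of smallest p, the 6 largest falls and 6 largest rises, the 4 highest and 4 lowest per length, those below the filter, and 10 of known role; in each other list, up to 2 called genes per direction or the 1 of smallest p. Mrpl20, Mrps22 and Mrps30 in the batch comparison, the genes whose ages did not overlap, Dap3, the other factors named beside Ppargc1b, and neighbouring genes were added after their values were seen.

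Alternatives were DESeq2 1.42.0 on mouse sums or on batch-corrected counts per eye, DESeq2 size factors, other filters, omission of batch, a block of replicate number, each mouse left out, one eye only, each eye as a sample (edgeR, with or without the rod score; voom of limma 3.58.1), removal of 3 libraries and no fold threshold. Correlations of deviations of same-numbered mice were 0.77, 0.61 and 0.85, and those between batch 1 mice of unlike number were 0.52 and 0.61. With batch removed they were 0.07 and 0.07 for mice 1 and 2, against -0.49 and -0.44 for unlike numbers. Removing age and batch from so few mice ties these values together. Whether the numbers pair mice beyond batch can therefore not be told.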

Additional observations from a re-analysis of the deposited data

Results flagged for a closer look

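Of the 50 sets of 6 eyes examined (the member mean and 24 named members at each age), 1 held a library far from the others. The rule gives about 1 in 20 by chance for 6 alike values, but each set mixed eyes of batch 1 and batch 2. A difference between batches widens the range, so the rate that applies here is not known. In Mrps27 the left eye of 22-month mouse 1 had a log2 CPM of 3.85, or 14.3 CPM, above the 11.3 to 12.3 CPM of the other 22-month eyes. Eyes were not independent samples. The gene overlaps 6430562O15Rik, a gene that rose with age (log2 fold change 1.94, adjusted p = 0.0324 in edgeR), and its part in this value was not tested.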

How the results depend on the processing

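The main test called 1 member lower. With edgeR the count was 0 without the batch term, with the replicate block in place of batch, from left eyes or right eyes alone, with the rod score as a covariate of each eye, and without 3 libraries of extreme rod score. In these settings 0, 14, 6, 15, 17 and 11 members, in that order, had an unadjusted p below 0.05, all lower, where 2.88%, 13.5%, 8.75%, 14.1%, 7.66% and 11.8% of all tested genes were lower at that p. The count was 2 with DESeq2 on mouse sums and 11 with voom. It was 13 each with edgeR and with DESeq2 on batch-corrected counts, both taking each eye as a sample. Of all tested genes 8.88% and 9.66% were called lower there, against 2.26% in the main test. Both fits counted the eyes of a mouse as separate replicates, and the DESeq2 fit held no batch term, so their calls do not rest on mice as replicates. With a mouse left out the count was 5 without mouse 3 of either age, settings that compare the same batch 1 mice. It was 0 without any other mouse. In those settings 8 to 11 members, and 7.43% to 9.87% of all tested genes, were lower at an unadjusted p below 0.05. Mrps7 was among the members called wherever any was. No member was called higher in edgeR, DESeq2 or voom under these settings. The median log2 fold change of the members was -0.09 in the main test, -0.12 with all counted genes, -0.11 with filterByExpr, -0.11 from left eyes and -0.14 with the rod score, and -0.11 to -0.08 with a mouse left out. DESeq2 size factors and no fold threshold moved neither the counts nor the median beyond the spread between mice. The cause of these differences was not tested.

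The block drew on mouse numbers that follow batch, and not every mouse correlated best with its own number. Of 480 values of 24 named members under 20 alternatives, 413 kept their sign and call, 34 were called only under the alternative, 10 (all Mrps7) lost the call and 23 changed sign, none of them called. From right eyes Mrpl40 was at -0.019, Mrpl44 at 0.066 and Mrpl47 at -0.0082. From left eyes Mrps17 was at -0.039. With the rod score Mrpl47 was at -0.14, Mrps10 at -0.029, Mrps17 at -6.3e-05, Mrps18b at -0.059, Mrps27 at -0.013 and Mrps35 at -0.038. Without the 3 libraries Mrps17 was at -0.022 and Mrps35 at -0.0050. Mrps18c was at 0.0011 with DESeq2 on batch-corrected counts and at 0.012 with voom. With a mouse left out the ranges were -0.070 to 0.00042 for Mrpl44, -0.044 to 0.13 for Mrpl47, -0.017 to 0.18 for Mrps17, -0.029 to 0.12 for Mrps18b, -0.053 to 0.047 for Mrps18c and -0.0024 to 0.18 for Mrps27.

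With 3 mice per age, 1 of them the sole mouse of its age in batch 2, age differences of the size seen in most members were near their standard errors, and members with few counts, such as Mrpl36, could not be tested.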
